A study of Mus musculus with 3 samples.

Results

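The voltage sensor of muscle excitation was followed through 8 genes on the arrays, namely Cacna1s, Cacna1h, Cacnb1, Cacna2d1, Cacng1, Cacng6, Stac3 and Bin1. They were taken by gene symbol from a list drawn up for the dihydropyridine receptor and its T-tubule, and all 8 were measured among the 25206 genes of the table. Each group was 1 array, hybridized with RNA pooled from 3 mice, so the variation among mice is unknown and no test was possible. The tibialis anterior of male CD2F1 mice, aged 10 weeks at vector injection, carried an adeno-associated virus 9 vector (AAV9, 1e+11 vector genomes in 20 µL per muscle) in all 3 groups. C26 FoxP1-shRNA muscles held the vector with the shRNA against FoxP1 and came from mice inoculated 2 weeks later with 500000 colon 26 adenocarcinoma cells in each flank, a tumour that causes cachexia. C26 scrambled-shRNA muscles came from mice with the same tumour and a vector with a scrambled shRNA, and Sham scrambled-shRNA muscles had that scrambled vector and an inoculation of saline only. All muscles were harvested 26 days after inoculation, at tumour endpoint. The shRNA was driven by the U6 promoter, which works in any cell the vector enters, and the marker protein also differed, being mCherry in the FoxP1-shRNA vector and GFP in the scrambled vector. A tumour-free muscle with FoxP1-shRNA was not analysed here, so the knockdown could be read in tumour-bearing muscle alone.

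In a skeletal muscle fibre, the action potential travels inwards along the T-tubules, where the dihydropyridine receptor senses the voltage. This L-type calcium channel is built from a pore-forming alpha 1S subunit (Cacna1s), an intracellular beta 1 subunit (Cacnb1), an extracellular alpha 2 delta 1 subunit (Cacna2d1) and a membrane-spanning gamma 1 subunit (Cacng1), and it is linked mechanically to the ryanodine receptor of the sarcoplasmic reticulum, which then releases calcium. Stac3 is an adaptor protein that the channel needs to reach the T-tubule and to couple to calcium release, Bin1 (amphiphysin 2) bends membrane into T-tubules, Cacng6 is a further gamma subunit found in muscle, and Cacna1h is the pore of a T-type channel that is best known from immature fibres, neurons and vascular smooth muscle.

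The question put by the design was how far tumour burden lowers muscle genes and how far FoxP1 knockdown opposes this. Foxp1 itself had log2 values of 6.52 in C26 FoxP1-shRNA, 7.31 in C26 scrambled-shRNA and 6.41 in Sham, so that it was 1.73-fold lower on the knockdown array than on the other tumour-bearing array. In C26 scrambled-shRNA, 4 of the 8 genes had 0.5 times the Sham level or less, beside 4.33% of all genes, and these were the pore, the beta and the alpha 2 delta subunit of the channel and Stac3. None was at or above 2 times Sham, beside 3.34% of all genes. With FoxP1-shRNA, the values of all 8 genes lay above those of C26 scrambled-shRNA, as did those of 44.8% of all genes, by 1.12-fold for Bin1 to 3.53-fold for Cacnb1, and Cacnb1 and Stac3 were past 2-fold, as were 1.44% of all genes in that direction. Fewer fibres and less RNA per fibre cannot be told apart in RNA of whole muscle. Cacng1 stood apart from the other members, since its value was lowest in Sham and highest with FoxP1-shRNA.

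**Figure D1:**
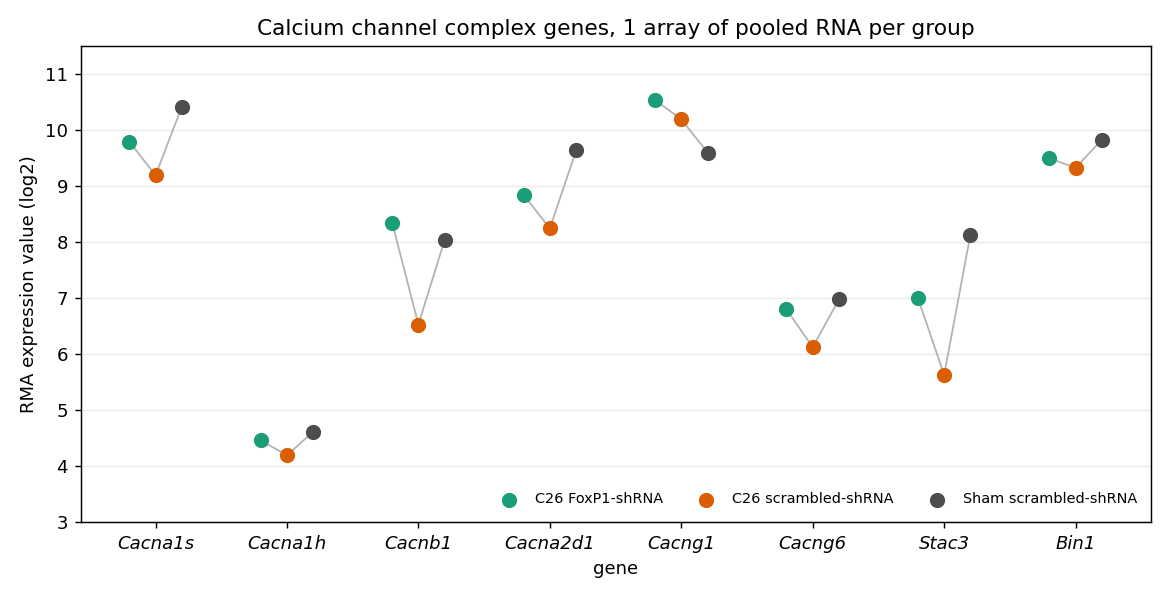
Expression values (log2, Robust Multiarray Average) of the 8 genes on the 3 arrays, 1 point per array of RNA pooled from 3 mice, so that no error bar can be drawn. The C26 scrambled-shRNA point is the lowest of the 3 for every gene but Cacng1, whose Sham point is lowest, at 9.60.

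Among the pore-forming subunits, Cacna1s had a log2 value of 9.79 in C26 FoxP1-shRNA, 9.19 in C26 scrambled-shRNA and 10.41 in Sham scrambled-shRNA. The C26 scrambled-shRNA array was the lowest of the 3, and the FoxP1-shRNA array lay about midway between it and Sham. Cacna1s was thus 2.33-fold below Sham in C26 scrambled-shRNA, 1.52-fold above C26 scrambled-shRNA after the knockdown, and 1.54-fold below Sham after the knockdown. Of all genes, 2.83% had a more negative difference between C26 scrambled-shRNA and Sham. When the arrays were centred on 8 skeletal muscle markers, the difference was -0.98 on the log2 scale and so just short of 2-fold. Cacna1h had log2 values of 4.46 with FoxP1-shRNA, 4.20 in C26 scrambled-shRNA and 4.62 in Sham, which were close to the medians of the same arrays, at 3.99, 4.05 and 4.06. The 3 values of this T-type channel lay within 0.42 of each other on the log2 scale, and no ratio between them reached 2-fold. Cacna1h is also expressed by smooth muscle. Of 6 smooth muscle markers none passed 2-fold in any comparison. Their summed linear level was 590.1 with FoxP1-shRNA, 462 in C26 scrambled-shRNA and 659 in Sham. Acta2, Myh11, Smtn and Tagln lay above the array median throughout. The markers did not share 1 order. In C26 scrambled-shRNA, Acta2, Myh11, Smtn and Cnn1 were below Sham, whereas Tagln and Myocd were above it. Tagln had log2 values of 6.43 with FoxP1-shRNA, 6.08 in C26 scrambled-shRNA and 5.60 in Sham. The part of these cells in the Cacna1h values was not tested.

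Cacnb1, the beta subunit that brings the channel to the T-tubule and is required for coupling, had log2 values of 8.35 in C26 FoxP1-shRNA, 6.53 in C26 scrambled-shRNA and 8.04 in Sham. It was 2.86-fold below Sham in C26 scrambled-shRNA and 3.53-fold above C26 scrambled-shRNA after the knockdown, and it was the member with the largest difference between the 2 tumour-bearing arrays. Only 63 of the 25206 genes had a larger positive difference there. With FoxP1-shRNA it was 1.24 times Sham, so that of the 4 members past 2-fold in C26 scrambled-shRNA it was the one whose FoxP1-shRNA value was not below Sham. Cacna2d1, the extracellular subunit that is also the receptor for gabapentin in neurons, had log2 values of 8.84 with FoxP1-shRNA, 8.24 in C26 scrambled-shRNA and 9.64 in Sham. It was 2.62-fold below Sham in C26 scrambled-shRNA, 1.51-fold above C26 scrambled-shRNA after the knockdown, and 1.73-fold below Sham after the knockdown. The ratios of these 2 subunits to Sham were thus close in C26 scrambled-shRNA, and their ratios between the tumour-bearing arrays were further apart.

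The promoter windows of the pore and beta subunit genes are shown because both genes were past 2-fold in C26 scrambled-shRNA while only the beta subunit passed that size with FoxP1-shRNA, and because FoxP1 is a forkhead factor while MEF2 and MYOD factors are known activators of muscle genes. RefSeq windows from 250 bases before to 50 bases after a start site (GRCm38.p6) were taken for Cacna1s, Cacnb1, Cacna2d1 and Cacng6. Cacnb1 had 2 start sites, which made 5 windows in all. Cacna1h, Cacng1 and Stac3 had no window and Bin1 was left out, so the search covered 4 of the 8 members. The 5 windows were searched on both strands for the MEF2 motif, the E-box CAGCTG that MYOD factors bind and the forkhead motif TGTTTAC. The one match in the 5 windows was an E-box of Cacna1s, from -123 to -118 relative to the start site and overlapping no other motif, which is in capitals below. Of 32851 windows of the same length over all genes, 16.3% held this E-box, 3.19% the MEF2 motif and 3.65% the forkhead motif. Of the windows printed, Cacna1s is chr1:136052561-136052860 on the plus strand, the upstream start site of Cacnb1 is chr11:98022578-98022877 on the minus strand, and its downstream start site is chr11:98018323-98018622 on the minus strand.
Cacna1s: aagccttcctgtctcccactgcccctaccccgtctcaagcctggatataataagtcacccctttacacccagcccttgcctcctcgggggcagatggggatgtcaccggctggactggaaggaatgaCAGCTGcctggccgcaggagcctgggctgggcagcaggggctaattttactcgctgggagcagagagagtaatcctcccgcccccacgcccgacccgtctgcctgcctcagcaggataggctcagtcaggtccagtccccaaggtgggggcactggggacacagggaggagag
Cacnb1 upstream start site: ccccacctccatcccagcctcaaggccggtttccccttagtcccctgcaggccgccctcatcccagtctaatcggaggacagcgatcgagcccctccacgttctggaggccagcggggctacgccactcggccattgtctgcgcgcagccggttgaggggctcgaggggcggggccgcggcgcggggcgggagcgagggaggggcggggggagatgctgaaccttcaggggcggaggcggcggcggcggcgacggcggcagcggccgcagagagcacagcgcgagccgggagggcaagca
Cacnb1 downstream start site: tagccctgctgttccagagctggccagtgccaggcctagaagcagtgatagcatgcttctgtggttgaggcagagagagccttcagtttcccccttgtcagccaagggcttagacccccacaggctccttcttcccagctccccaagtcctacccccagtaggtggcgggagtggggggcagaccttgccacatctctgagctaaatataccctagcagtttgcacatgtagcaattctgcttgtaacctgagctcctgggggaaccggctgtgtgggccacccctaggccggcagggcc
The C and G content was 63.0% for Cacna1s, 73.7% and 59.3% for the upstream and downstream start sites of Cacnb1, 80.0% for Cacna2d1 and 52.7% for Cacng6. The array gives 1 value per gene, so the use of the start sites of Cacnb1 could not be told apart.

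The 2 gamma subunit genes differed in direction. Cacng1, the gamma 1 subunit that restrains the calcium current of the channel, had log2 values of 10.54 in C26 FoxP1-shRNA, 10.19 in C26 scrambled-shRNA and 9.60 in Sham. It was 1.92 times Sham in C26 FoxP1-shRNA, close to the 2-fold size, and 1.51 times Sham in C26 scrambled-shRNA, and 1.83% of all genes had a larger positive difference between FoxP1-shRNA and Sham. With each array centred on its median, the difference of FoxP1-shRNA from Sham was 1.01 on the log2 scale and passed 2-fold. Cacng6 had log2 values of 6.80 with FoxP1-shRNA, 6.12 in C26 scrambled-shRNA and 6.98 in Sham. Its C26 scrambled-shRNA value was the lowest, at 0.552 times Sham, and its FoxP1-shRNA value was 1.60 times that of C26 scrambled-shRNA, neither of which reached 2-fold. In the mouse genome Cacng1 is followed by Cacng4 and Cacng5, and Cacng6 lies beside Cacng8 and then Cacng7, genes of the same family that are better known from the brain. Cacng4 was 1.08 times Sham in C26 scrambled-shRNA and Cacng5 1.14 times, while Cacng8 was 1.14 times. Cacng5 had log2 values at or below 3.80, under the array medians, and those of Cacng8 ran from 3.99 to 4.19, near the medians. A fall could hardly show in these 2 genes. Cacng7 had log2 values of 6.17 with FoxP1-shRNA, 5.55 in C26 scrambled-shRNA and 6.66 in Sham, and was 2.16-fold below Sham in C26 scrambled-shRNA and 1.54-fold above C26 scrambled-shRNA after the knockdown. Its order over the arrays was thus that of Cacng6, and the other gamma genes named here had no ratio past 2-fold.

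Stac3 showed the largest difference of the 8 genes between tumour-bearing and tumour-free muscle. Its log2 value was 7.00 in C26 FoxP1-shRNA, 5.63 in C26 scrambled-shRNA and 8.13 in Sham. The 3 arrays were well separated, with FoxP1-shRNA slightly above the middle of the other two. Stac3 was 5.68-fold below Sham in C26 scrambled-shRNA, and 132 of the 25206 genes had a more negative difference. It was 2.59-fold above C26 scrambled-shRNA after the knockdown, and remained 2.19-fold below Sham after the knockdown, the only member at or below 0.5 times Sham with the knockdown. Stac and Stac2, the relatives of Stac3 that are better known from neurons, had log2 values at or below 3.62 on every array, under the array medians, and no ratio past 2-fold. Cacnb1 and Stac3 are among the genes that the study selected on these same arrays for being low in C26 and higher with FoxP1-shRNA, so that their values are no independent evidence for that selection. Bin1 had log2 values of 9.49 with FoxP1-shRNA, 9.32 in C26 scrambled-shRNA and 9.83 in Sham. These lay within 0.50 of each other, at 0.794 times Sham with FoxP1-shRNA and 0.707 times Sham in C26 scrambled-shRNA.

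Set against all genes, the members lay towards the lower side in C26 scrambled-shRNA and towards the upper side with the knockdown. At or below 0.5 times Sham were 4 of the 8 members in C26 scrambled-shRNA, beside 4.33% of all genes, and at or above 2 times Sham were 0 of 8 beside 3.34%. The median log2 difference was -1.04 over the members and 0.03 over all genes. With FoxP1-shRNA against C26 scrambled-shRNA, 2 of 8 members were at or above 2 times beside 1.44% of all genes and 0 of 8 at or below 0.5 times beside 1.06%. The medians of this comparison were 0.60 over the members and -0.03 over all genes. With FoxP1-shRNA against Sham, 1 of 8 members was at or below 0.5 times beside 2.17% of all genes and 0 of 8 at or above 2 times beside 1.61%, and the medians were -0.26 and -0.0041. The first and second comparisons share the C26 scrambled-shRNA array, and a low reading on it would widen both, and only the comparison of FoxP1-shRNA with Sham is free of it. Centred on the muscle markers, 2.73% of all genes were at or below 0.5 times and 6.18% at or above 2 times Sham in C26 scrambled-shRNA, while 3 and 0 of the 8 members were. In the same order the shares of all genes were 1.61% and 1.03% with FoxP1-shRNA against C26 scrambled-shRNA and 1.66% and 2.14% with FoxP1-shRNA against Sham. All 8 members lay above the array medians, while the shares of all genes include dim genes, in which 2-fold differences were rarer. The list was put together with results of these arrays known.

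**Figure D2:**
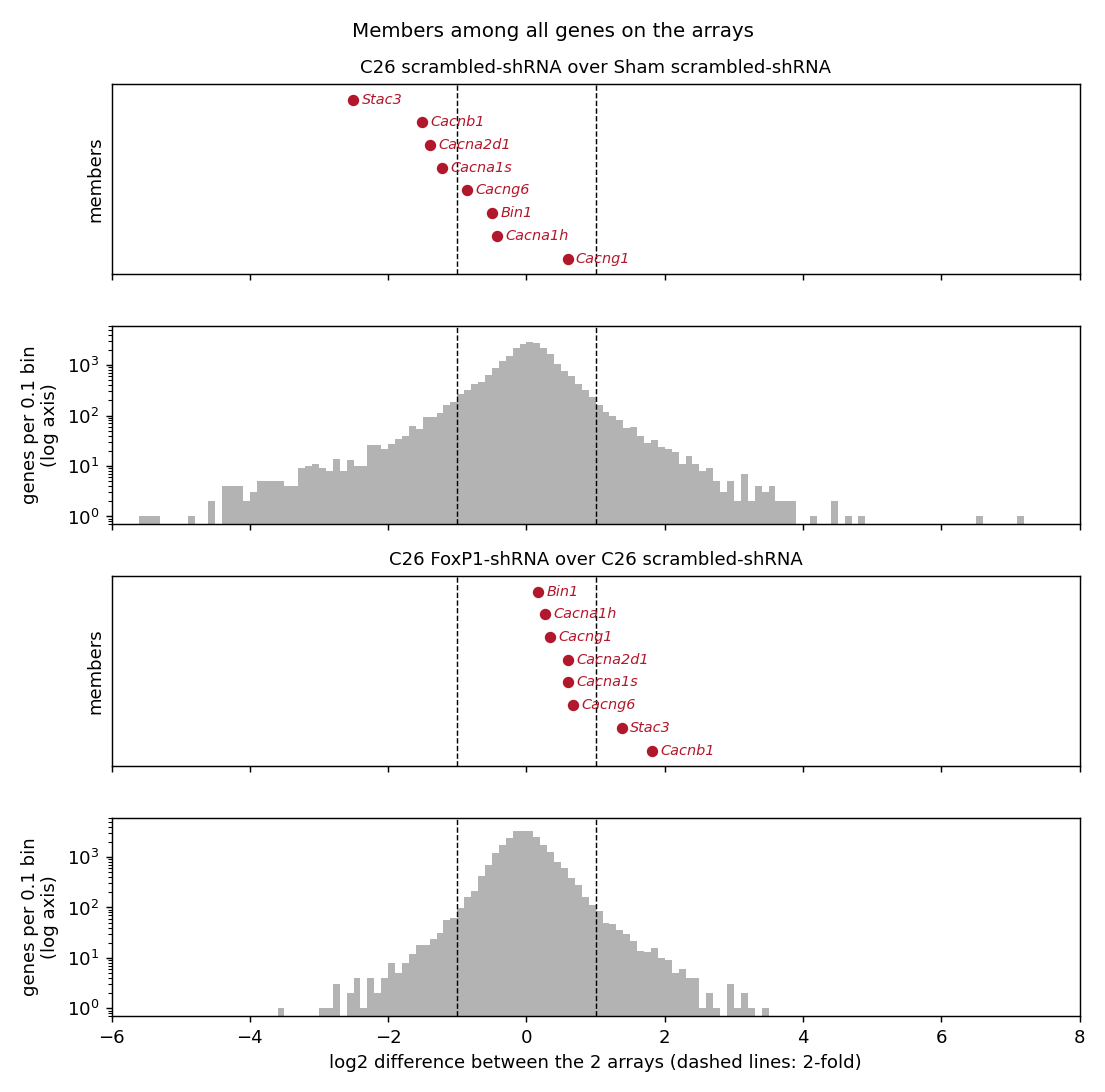
Log2 difference of each member (points, upper strip of each pair) above the distribution of all 25206 genes (grey bars, genes per bin on a log axis) for C26 scrambled-shRNA over Sham (top pair) and C26 FoxP1-shRNA over C26 scrambled-shRNA (bottom pair). Dashed lines mark 2-fold; 4 members lie beyond the lower line in the top pair, and Stac3 and Cacnb1 lie beyond the upper line in the bottom pair.

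Of the other genes of the voltage-gated calcium channel family, 21 were measured. They are further pores, beta, alpha 2 delta and gamma subunits and the Stac relatives. Of the 21, 14 lay at or below the array median with FoxP1-shRNA, 15 in C26 scrambled-shRNA and 15 in Sham. A fall could hardly show in such dim genes, and no member lay that low. In C26 scrambled-shRNA, 2 of the 21 had 0.5 times the Sham level or less, beside 4.33% of all genes. None was at or above 2 times, beside 3.34% of all genes. With FoxP1-shRNA against C26 scrambled-shRNA none of the 21 passed 2-fold, beside 1.06% of all genes downwards and 1.44% upwards. The median log2 differences of the 21 were 0.08 and -0.04 in these comparisons. Besides Cacng7, the gene past 2-fold was Cacna2d4, an alpha 2 delta subunit known from the retina, with log2 values of 4.19 with FoxP1-shRNA, 3.66 in C26 scrambled-shRNA and 5.40 in Sham. It was 3.33-fold below Sham in C26 scrambled-shRNA and 2.31-fold below Sham after the knockdown, but its values in tumour-bearing muscle were near the array medians. Cacna1c, the L-type pore of heart and smooth muscle, had log2 values of 4.81 with FoxP1-shRNA, 4.39 in C26 scrambled-shRNA and 4.75 in Sham, and Cacna1a, a P/Q-type pore of nerve terminals, was 0.757 times Sham in C26 scrambled-shRNA. Neither of these pores came near 2-fold. Of the beta subunits measured, Cacnb2 was 0.990 times Sham in C26 scrambled-shRNA and 0.899 times C26 scrambled-shRNA with FoxP1-shRNA, against the 0.350 times and 3.53 times of Cacnb1. Cacnb2 had log2 values of 4.03 with FoxP1-shRNA, 4.19 in C26 scrambled-shRNA and 4.20 in Sham. These were near the array medians, where a fall could hardly show.

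Among 10 measured proteins that bind the channel, 3 in C26 scrambled-shRNA had 0.5 times the Sham level or less, beside 4.33% of all genes. For 2 of the 10, the knockdown array exceeded the other tumour-bearing array by 2-fold or more, beside 1.44% of all genes. Akap6, which anchors protein kinase A at the membranes of the triad and the nuclear envelope, had log2 values of 6.36 with FoxP1-shRNA, 4.87 in C26 scrambled-shRNA and 7.47 in Sham. It was 6.08-fold below Sham in C26 scrambled-shRNA and 2.80-fold above C26 scrambled-shRNA after the knockdown. Calm2 and Calm3 encode calmodulin, the calcium sensor that binds both the channel and the ryanodine receptor. Calm3 was 5.20-fold below Sham in C26 scrambled-shRNA and 2.27-fold above C26 scrambled-shRNA after the knockdown, and Calm2 was 2.92-fold below and 1.22-fold above in the same comparisons. Jsrp1, which encodes the junctional protein JP-45 that binds both the pore and calsequestrin, was 0.888 times Sham in C26 scrambled-shRNA and 1.85 times C26 scrambled-shRNA with FoxP1-shRNA. Rrad, a small GTPase of the RGK family that binds beta subunits and inhibits the channel, had log2 values of 4.41 with FoxP1-shRNA, 5.07 in C26 scrambled-shRNA and 4.68 in Sham. Rrad was thus highest in C26 scrambled-shRNA, the reverse of most channel subunits, though at 1.31 times Sham it did not reach 2-fold, and its relatives Gem and Rem2 were 1.04 and 1.01 times Sham there. Ahnak, a large scaffold protein that binds beta subunits, was 1.31 times Sham with FoxP1-shRNA and 1.35 times Sham in C26 scrambled-shRNA.

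The genes of T-tubule formation and membrane repair, with which Bin1 acts, had medians near 0. Of 13 measured, 1 was at or below 0.5 times and 1 at or above 2 times Sham in C26 scrambled-shRNA, beside 4.33% and 3.34% of all genes. The same counts were found with FoxP1-shRNA against C26 scrambled-shRNA, beside 1.06% and 1.44% of all genes. The medians of the 2 comparisons were 0.0035 and 0.05. Cav3, the caveolin of muscle that takes part in T-tubule growth, had log2 values of 6.15 with FoxP1-shRNA, 4.56 in C26 scrambled-shRNA and 6.27 in Sham. It was 3.28-fold below Sham in C26 scrambled-shRNA, 3.01-fold above C26 scrambled-shRNA after the knockdown, and 0.918 times Sham with FoxP1-shRNA. Ehd3, a membrane-remodelling ATPase of the endosome, had the opposite order, with log2 values of 6.22 with FoxP1-shRNA, 7.54 in C26 scrambled-shRNA and 5.32 in Sham, and was 4.65-fold above Sham in C26 scrambled-shRNA. Dnm2, the dynamin that cuts membrane tubes and is a partner of Bin1, was 1.43 times Sham in C26 scrambled-shRNA and 0.990 times C26 scrambled-shRNA with FoxP1-shRNA. Mtm1, the lipid phosphatase myotubularin, was 1.09 times Sham and 0.975 times C26 scrambled-shRNA in the same comparisons. Tcap, a titin-binding protein of the Z-disc, was 0.588 times Sham in C26 scrambled-shRNA and 1.70 times C26 scrambled-shRNA with FoxP1-shRNA, and Speg, a kinase that binds myotubularin, was 0.628 and 1.66 times. Ehd2, a relative of Ehd3 found at caveolae, was 0.554 times Sham with FoxP1-shRNA and 0.569 times Sham in C26 scrambled-shRNA, while Trim72, the membrane repair protein MG53, was 1.83 times Sham with FoxP1-shRNA and 1.42 times Sham in C26 scrambled-shRNA. No ratio of Bin1 or of these last 6 genes passed 2-fold.

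On the other side of the junction, 14 genes of the calcium release unit were measured. In C26 scrambled-shRNA, 5 of the 14 had 0.5 times the Sham level or less, beside 4.33% of all genes. The knockdown array exceeded the other tumour-bearing array by 2-fold or more for 3 of the 14, beside 1.44% of all genes. The median log2 differences of the list were -0.76 and 0.61 in these comparisons. Ryr1, the ryanodine receptor that the channel acts on, had log2 values of 10.89 with FoxP1-shRNA, 10.69 in C26 scrambled-shRNA and 11.06 in Sham. The 3 arrays lay close together, at 0.775 times Sham in C26 scrambled-shRNA, whereas the pore on the T-tubule side was at 0.429 times. The widest difference was that of Casq1, the calsequestrin of fast fibres that stores calcium in the reticulum, with log2 values of 10.10 with FoxP1-shRNA, 7.16 in C26 scrambled-shRNA and 11.48 in Sham. It was 20.1-fold below Sham in C26 scrambled-shRNA and 7.72-fold above C26 scrambled-shRNA after the knockdown. Casq2, the calsequestrin of heart and slow fibres, was 3.93-fold below and 3.55-fold above in these comparisons, and Jph2, a junctophilin, was 5.98-fold below and 2.39-fold above. Hrc, a calcium-binding protein of the reticulum, was 2.67-fold below Sham in C26 scrambled-shRNA and Srl, sarcalumenin, 2.07-fold, and their values after the knockdown were both 1.71 times those of C26 scrambled-shRNA. Asph, whose junctin form ties calsequestrin to the ryanodine receptor, was 1.99-fold below Sham in C26 scrambled-shRNA, just short of the size used, and 1.95 times C26 scrambled-shRNA with FoxP1-shRNA. Jph1, the junctophilin that holds the T-tubule against the reticulum in skeletal fibres, was 0.663 times Sham in C26 scrambled-shRNA, against 0.167 times for Jph2.

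**Figure D3:**
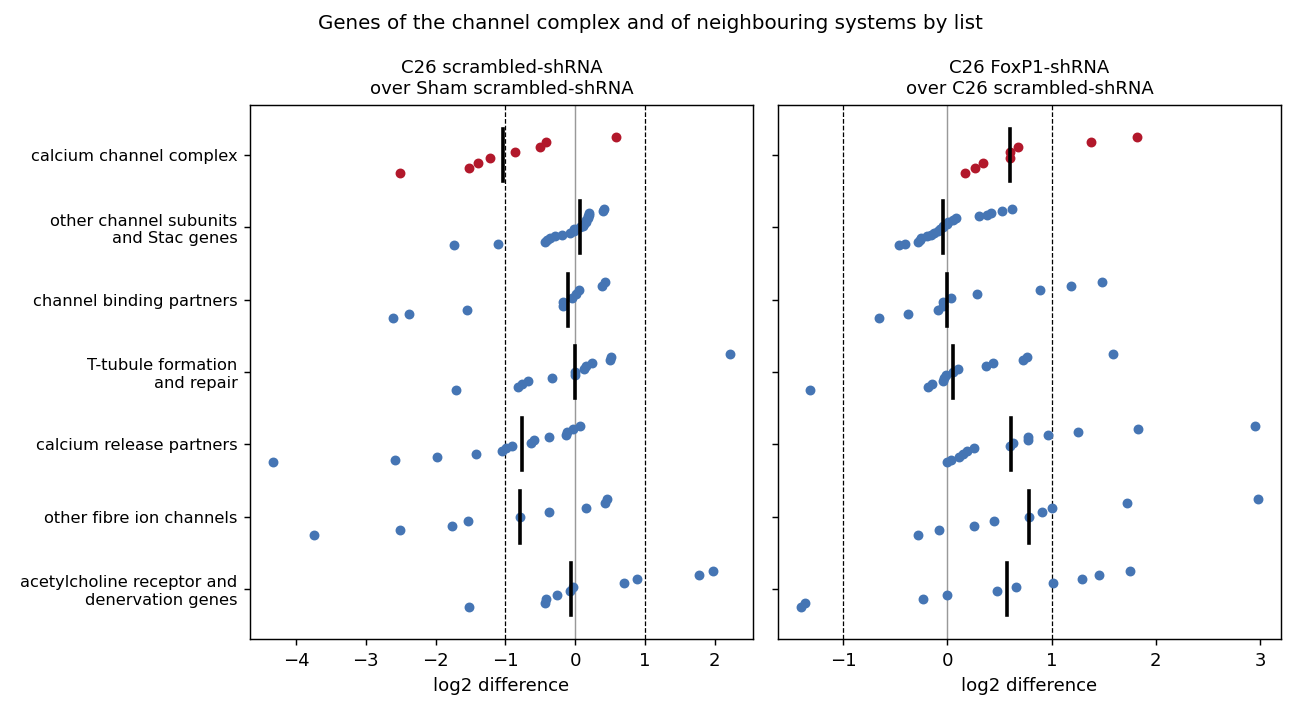
Log2 differences of single genes (points) and their median (black bar) for the channel complex (8 genes, red) and 6 lists of related genes (blue), for C26 scrambled-shRNA over Sham (left) and C26 FoxP1-shRNA over C26 scrambled-shRNA (right). Dashed lines mark 2-fold. The medians of the complex are -1.04 and 0.60, and those of the other channel subunits and Stac genes are 0.08 and -0.04. Of these other channel subunits and Stac genes, 15 of 21 lay at or below the array median in Sham, where a fall could hardly show.

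For Cacna1s and Stac3, the genes with the most similar pattern were found by the distance between the 3 log2 values after each gene was centred on its own mean, among 11712 genes that had an ordinary symbol (no predicted genes, olfactory receptors or small RNAs) and lay above the array median on at least 1 array. Nearest to Cacna1s were Tspan3, Zfp971 and Rab28, at distances of 0.0084, 0.014 and 0.015 on the log2 scale. Nearest to Stac3 were Cpq, Nkain1 and Kbtbd13, at 0.055, 0.067 and 0.068. Tspan3, a tetraspanin, was 2.32-fold below Sham in C26 scrambled-shRNA and 1.52-fold above C26 scrambled-shRNA after the knockdown, and Cpq, a carboxypeptidase, was 5.91-fold below and 2.73-fold above in the same comparisons. A pattern over only 3 arrays holds little detail, and no subunit of the channel was among them.

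The make-up of the muscles was read from marker lists. The 8 skeletal muscle markers, such as Acta1 and Ckm, were at log2 values of 10.51 or higher on all arrays and none passed 2-fold in any comparison. The highest values of the arrays were 12.25 with FoxP1-shRNA, 12.45 in C26 scrambled-shRNA and 12.39 in Sham. Several of these markers thus lay near the top of the range, where a difference may be understated. Of 8 fast fibre markers only Pvalb, the parvalbumin of fast fibres, was past 2-fold below Sham in C26 scrambled-shRNA, as were 4.33% of all genes. The summed linear level of 7 slow fibre markers was 254 with FoxP1-shRNA, 419 in C26 scrambled-shRNA and 322 in Sham. Myh7, the slow myosin, was the one past 2-fold in C26 scrambled-shRNA against Sham, at 2.54 times and with a value near the array median. Atp2a2, the brightest of the 7 and so the largest part of the sum, was 1.09 times Sham there. Myl3 went the other way, at 0.520 times Sham, while Tnnt1, Tnni1, Tnnc1 and Myl2 were above Sham. With FoxP1-shRNA, Myl2 was 3.43-fold below C26 scrambled-shRNA, the one marker past 2-fold in that comparison. For 7 neutrophil markers the summed level was 275 with FoxP1-shRNA, 395 in C26 scrambled-shRNA and 72.6 in Sham. At or above 2 times Sham in C26 scrambled-shRNA were 5 of 7, beside 3.34% of all genes. For 7 fibroblast markers it was 2003, 1739 and 3479.7 in the same order of groups. At or below 0.5 times Sham in C26 scrambled-shRNA were 4 of 7, beside 4.33% of all genes. These were the matrix genes Col1a1, Col1a2, Col3a1 and Lum, whereas Thy1 was 0.619, Dcn 0.710 and Pdgfra 1.16 times Sham there. The part of these cells and fibre types in the values of the channel genes was not tested.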

How the data were processed

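Affymetrix Mouse Gene ST arrays, 1 per group, measured pooled tibialis anterior RNA. The authors made the deposited log2 values with the Robust Multiarray Average of affy 1.36.1 and R 2.15.1 (submitters' processing notes), using an Entrez gene mapping (the paper's methods). This corrects the background, gives the probe values of all arrays the same distribution and then summarises the probes of a gene. Differences are therefore relative to the whole array. The medians of the gene values still differed slightly, at 3.99 with FoxP1-shRNA, 4.05 in C26 scrambled-shRNA and 4.06 in Sham. The genome build is not given in the sources used here, nor is the set of arrays normalized jointly.

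The platform annotation gave 1 symbol to 23185 of 25206 genes and several to 0, leaving 2021 unnamed. Log2 differences and their folds came from Python 3.11.15, numpy 2.4.6 and pandas 2.3.3, with no filter on dim genes. A size of 2-fold was fixed in place of a test, because each group is 1 array. The number of arrays limits the precision. The counting step was run on simulated data with known changes and little noise, which checks its arithmetic but not the rate of false counts.

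Named are all 8 members, up to 4 genes per related list and comparison with the largest difference among those above the array median, and the 3 genes nearest in pattern to Cacna1s and to Stac3. Other genes named (Cacng4, Cacng5, Gem, Rem2, Stac, Stac2, Mtm1, Ryr1, Srl, Chrng, the genes beside the members and the markers) were chosen for their role, with values in view. The members and lists were chosen with earlier results of these data known. Alternatives were 5 other scalings (with limma 3.58.1 under R 4.3.3 for quantile and cyclic loess normalization), sizes of 1.5-fold and 3-fold, a filter on dim genes and the mean of a list. Promoter windows came from RefSeq (GRCm38.p6).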

Additional observations from a re-analysis of the deposited data

How the results depend on the processing

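Under 5 other scalings (arrays centred on their medians, quantile normalization, cyclic loess normalization, centring on 8 measured reference genes and, added after seeing the data, centring on 8 skeletal muscle markers), every difference of the members kept their sign, and 116 of 120 recomputed values stayed on their side of 2-fold and within 1.5 times. The other 4 were Cacna1s in C26 scrambled-shRNA against Sham, at -0.98 when centred on the muscle markers, and Cacng1 with FoxP1-shRNA against Sham, at 1.01 with median centring, 1.00 with the reference genes and 1.05 with the muscle markers, each of which gave 1 member in place of 0 at or above 2 times. Centring on the muscle markers shifted the median of all genes to 0.28 in C26 scrambled-shRNA against Sham, with 687 genes at or below 0.5 times and 1558 at or above 2 times (1092 and 843 as deposited), and to -0.17 with FoxP1-shRNA against C26 scrambled-shRNA, with 407 and 260 genes (267 and 362 as deposited). With FoxP1-shRNA against Sham the shift was 0.11, with 418 and 540 genes (548 and 405 as deposited). With sizes of 1.5-fold and 3-fold, C26 scrambled-shRNA against Sham had 5 and 1 members on the lower side (10.5% and 1.57% of all genes) and 1 and 0 on the higher side (10.1% and 1.11%). With FoxP1-shRNA against C26 scrambled-shRNA, 5 and 1 members were on the higher side (5.43% and 0.381% of all genes), and with FoxP1-shRNA against Sham 3 and 0 were on the lower side (6.4% and 0.706%) and 1 and 0 on the higher side (5.76% and 0.393%). A filter on dim genes removed no member but raised the shares of all genes. With it, 7.5% were at or below 0.5 times and 5.77% at or above 2 times Sham in C26 scrambled-shRNA. In the same order the shares were 1.75% and 2.42% with FoxP1-shRNA against C26 scrambled-shRNA. They were 3.59% and 2.66% with FoxP1-shRNA against Sham. Taking means of the lists moved no list by over 1.5 times. No paired analysis was possible because each group is 1 array. Without replicate arrays, differences between mice could not be estimated for any value.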

Other observations

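Other channels and pumps of the fibre membrane and genes of the neuromuscular junction were described in the same way. Of 9 measured channels and pumps, 4 in C26 scrambled-shRNA had 0.5 times the Sham level or less, beside 4.33% of all genes. With FoxP1-shRNA, 3 had 2 times the C26 scrambled-shRNA level or more, beside 1.44% of all genes. The median log2 differences were -0.79 and 0.78. Clcn1, the chloride channel that stabilises the resting membrane, had log2 values of 8.13 with FoxP1-shRNA, 5.15 in C26 scrambled-shRNA and 8.90 in Sham. It was 13.4-fold below Sham in C26 scrambled-shRNA and 7.87-fold above C26 scrambled-shRNA after the knockdown, the widest differences of this list. Atp1b2, a beta subunit of the pump that exchanges sodium for potassium, was 5.68-fold below and 3.29-fold above in these comparisons. Kcna7, a voltage-gated potassium channel of muscle, had log2 values of 6.04 with FoxP1-shRNA, 5.13 in C26 scrambled-shRNA and 6.67 in Sham, and was 2.90-fold below Sham in C26 scrambled-shRNA. Atp1b1, another beta subunit of that pump, was 3.39-fold below Sham in C26 scrambled-shRNA and 2.01-fold above C26 scrambled-shRNA after the knockdown. Kcnj2, the inward rectifier that sets the resting potential, was not lower, at 1.61 times Sham with FoxP1-shRNA and 1.35 times Sham in C26 scrambled-shRNA.

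Of 10 genes of the acetylcholine receptor and of the response to denervation, 2 were at or above 2 times Sham in C26 scrambled-shRNA, beside 3.34% of all genes. At or below 0.5 times Sham there was 1 of the 10, beside 4.33% of all genes. The subunits of the receptor did not move alike. Chrne, the epsilon subunit of adult junctions, was 2.87-fold below Sham in C26 scrambled-shRNA and 2.44-fold above C26 scrambled-shRNA after the knockdown. Chrna1, the alpha subunit, had log2 values of 7.60 with FoxP1-shRNA, 5.85 in C26 scrambled-shRNA and 6.11 in Sham, and was 2.80-fold above Sham after the knockdown. Chrnb1, the beta subunit, was 2.04-fold above Sham after the knockdown. Musk, the receptor kinase of the junction, was 3.43-fold above Sham in C26 scrambled-shRNA and 2.58-fold below C26 scrambled-shRNA after the knockdown. Myog, the muscle transcription factor myogenin, was 3.93-fold above Sham in C26 scrambled-shRNA and 2.64-fold below C26 scrambled-shRNA after the knockdown. Gadd45a, a stress-response gene, was 3.28 times Sham with FoxP1-shRNA and 1.62 times Sham in C26 scrambled-shRNA, and Runx1, a transcription factor, was 1.85 times Sham with FoxP1-shRNA and 1.86 times Sham in C26 scrambled-shRNA. Chrng, the gamma subunit of embryonic and denervated muscle, was at or below a log2 value of 3.45 on all arrays, under the array medians.

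The protein-coding genes directly beside the 8 members in RefSeq order were looked up after the values had been seen. Of 16 such neighbours, 13 were measured and none passed 2-fold in any of the 3 comparisons. Of all genes, 4.33% were at or below 0.5 times and 3.34% at or above 2 times Sham in C26 scrambled-shRNA. A count of 0 among 13 genes is near such shares. Several neighbours, such as Tpsg1, Tekt4 and Hgf, lay below the array medians on all arrays, so a fall could hardly show in them. The log2 differences of the 13 ran from -0.60 to 0.54 in C26 scrambled-shRNA against Sham, with a median of 0.11. They ran from -0.32 to 0.62 with FoxP1-shRNA against C26 scrambled-shRNA, with a median of -0.022. Ndufa4l2 and R3hdm2, on the 2 sides of Stac3, were 0.658 and 0.840 times Sham in C26 scrambled-shRNA, where Stac3 was 0.176 times.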
